A study of Mus musculus with 22 samples.

Results

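The comparison described here is that of primary mouse hepatocytes exposed to 10 µM cyclosporin A for 48 h with hepatocytes kept in 0.5% v/v DMSO for 48 h. It rests on 9 of the 22 microRNA arrays in the series, 3 with cyclosporin A and 6 with DMSO, chosen by the sample names of the deposited value table. Cyclosporin A is a cyclic peptide that binds cyclophilins and blocks the phosphatase calcineurin; it is given against graft rejection and can harm the liver by cholestasis. All cells came from C57Bl6 mice and were cultured in minimal essential medium with 10% fetal bovine serum, and all groups carried the DMSO solvent, per the labels' protocols. Other groups used in later comparisons are 50 µM cyclosporin A for 48 h (3 arrays), 10 µM cyclosporin A for 24 h (3 arrays) and DMSO for 24 h (5 arrays). Each description also carries a tag, IC20-48h or IC20-24h, which no label explains: all 10 µM arrays have the first and all 50 µM arrays the second, so tag and dose cannot be told apart, and the DMSO arrays of both tags (3 of each at 48 h) were pooled. The titles call the samples biological replicates, but no label names an animal or a culture, so the p-values measure the spread between these arrays. One protocol field speaks of HepG2 cells where every other field names primary mouse hepatocytes.

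The 2 sources of sample names disagree. The spot-level files hold 22 arrays, and each column of the value table was matched to the 1 file whose total signals rank its 1247 miRNAs in the same order (rank correlation 1, against at most 0.966 with any other file for the 9 arrays used here). For 2 of the 3 cyclosporin A columns the matching file is deposited under the name of a 50 µM, 48 h sample, and for 4 of the 6 DMSO columns under another DMSO sample. No source used here says which naming is right. Everything below follows the value table's names, and where the file names change a call this is stated once per comparison.

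A microRNA (miRNA) is cut from a hairpin transcript and guides a silencing complex to messenger RNAs, mostly through its seed, the bases 2 to 8 from its 5′ end. miRNAs with 1 seed can share targets, and miRNAs whose hairpins lie close together are often made from 1 primary transcript. In hepatocytes the most abundant is miR-122-5p, which takes part in cholesterol and lipid metabolism, and several others are known as parts of the cholesterol feedback of the liver. In mouse liver the sterol-sensing factor SREBP-2 is known to activate the miR-183 cluster, and miR-182 and miR-96 act in turn on genes of that pathway. The miR-221 pair restrains the cell cycle inhibitor p27 and is high in proliferating and dedifferentiated cells.

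Of 290 miRNAs tested, 2 rose and 1 fell with 10 µM cyclosporin A at 48 h (adjusted p under 0.05, limma), which is 1.03% of those tested. The 2 that rose, miR-182-5p and miR-183-5p, lie in the same cluster, and the other member, miR-96-5p, had a like difference that did not pass the test. The 1 that fell was miR-221-3p. Their mature sequences are given here because the result turns on them; they are RefSeq's, of the assembly GRCm38.p6, 5′ to 3′, with the seed in capitals.

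miR-182-5p: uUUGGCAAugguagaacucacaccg
miR-96-5p: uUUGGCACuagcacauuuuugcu
miR-183-5p: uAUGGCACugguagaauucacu
miR-221-3p: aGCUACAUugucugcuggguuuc
miR-222-3p: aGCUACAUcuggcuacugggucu

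The first 7 bases of miR-182-5p and miR-96-5p are the same, and their seeds part at the last base. miR-183-5p shares with miR-182-5p 18 of 22 positions but not the seed. miR-221-3p and miR-222-3p have 1 seed. The hairpins of the cluster lie within 3820 bases on the minus strand, at chr6:30165918-30169737 of GRCm38.p6. Those of the pair lie within 678 bases at chrX:19146294-19146971, also on the minus strand. The hairpins of the cluster are shown next with the mature arm in capitals, which in all of them is the 5′ arm.

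Mir182 hairpin: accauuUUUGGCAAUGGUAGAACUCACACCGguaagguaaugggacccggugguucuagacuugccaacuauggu
Mir96 hairpin: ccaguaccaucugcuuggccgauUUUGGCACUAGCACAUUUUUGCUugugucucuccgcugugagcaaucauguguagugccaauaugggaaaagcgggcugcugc
Mir183 hairpin: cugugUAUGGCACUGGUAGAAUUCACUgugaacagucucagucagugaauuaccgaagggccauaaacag

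Values are log2 of the background-corrected probe signal divided by the array's own 75th percentile, so that 0 is the percentile itself. Signals at or below the detection limit were set to a floor of -4.41. Levels are compared between arrays for 1 miRNA, never between miRNAs, because each probe has its own brightness.

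miR-182-5p, which acts on Foxo1 and other transcription factor genes, read -2.39, -2.48 and -2.61 on the 3 cyclosporin A arrays. On the 6 DMSO arrays its lowest value was -3.58, its median -3.26 and its highest -3.08. All cyclosporin A arrays lay above all DMSO arrays. The difference was 0.82 ± 0.14 on the log2 scale (SE; 95% interval 0.52 to 1.13), a 1.77-fold higher signal, with an adjusted p of 0.00671.

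miR-183-5p read -3.03, -3.17 and -3.20 with cyclosporin A, against a lowest value of -3.92, a median of -3.85 and a highest of -3.51 with DMSO. Again the groups did not overlap. The difference was 0.66 ± 0.13 (95% interval 0.38 to 0.94), or 1.58-fold, with an adjusted p of 0.0144.

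miR-96-5p, the member that is best known from hearing, where a seed mutation in mice causes deafness, read -2.35, -2.69 and -2.77 with cyclosporin A. With DMSO its lowest value was -4.04, its median -3.25 and its highest -2.96. These groups did not overlap either, but the DMSO arrays spread more widely (SD 0.40, n = 6) than for miR-182-5p (SD 0.20, n = 6). The difference was 0.74 ± 0.21, and its adjusted p was 0.132. The opposite arms of the 3 hairpins are on the array and did not reach the limit for testing, so the cluster is represented by 3 of its 6 arms.

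miR-221-3p read -3.81, -4.41 and -3.76 with cyclosporin A, against a lowest value of -3.48, a median of -3.15 and a highest of -3.0 with DMSO. All cyclosporin A arrays lay below all DMSO arrays. The second cyclosporin A array stood at the floor, where the probe was not well above background, and the other 2 lay between the floor and the DMSO arrays. On that second array the lowest signal well above background was -3.42, inside the DMSO range. Its value of -4.41 therefore does not show a signal well below DMSO. The difference was -0.81 ± 0.17 (95% interval -1.17 to -0.45), with an adjusted p of 0.0181. Since 1 of the 3 values is the floor, its size and interval depend on where the floor was set; without that array the difference was -0.60 (adjusted p 0.258). miR-222-3p was not well above background on any cyclosporin A array and was so on 2 of the 6 DMSO arrays, so the pair's other member could not be followed.

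**Figure D1:**
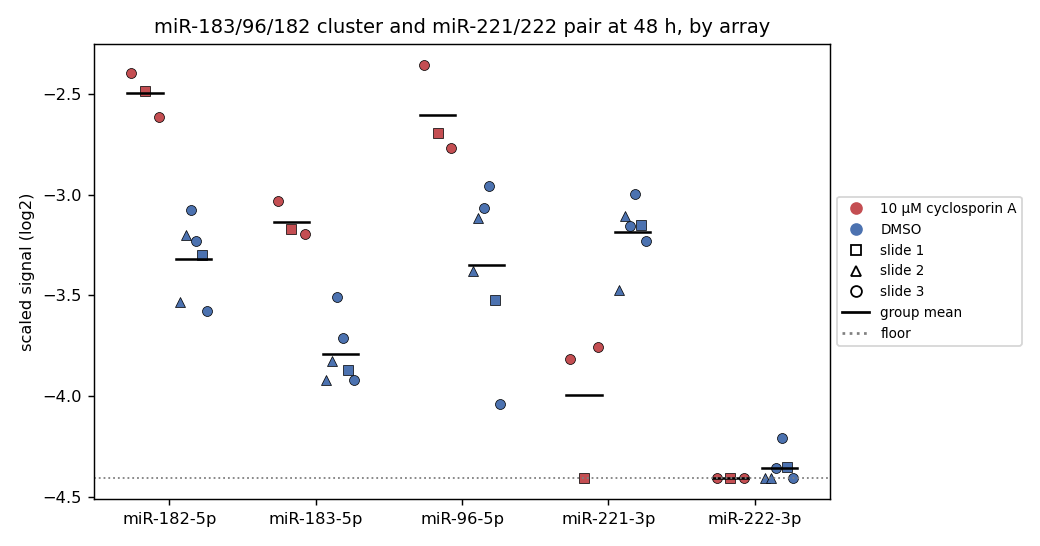
Scaled signal (log2, vertical axis) of the miR-183 cluster and the miR-221 pair on each 48 h array; red points are 10 µM cyclosporin A (n = 3), blue points DMSO (n = 6), shapes mark the slide and bars the group means. The red points of miR-182-5p, miR-183-5p and miR-96-5p all lie above the blue ones, those of miR-221-3p all lie below, and 1 of these and all red points of miR-222-3p lie on the floor of -4.41.

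The arrays came from 3 slides, and slides 1 and 3 held both groups. On slide 1 (1 cyclosporin A and 1 DMSO array) the differences of miR-182-5p, miR-183-5p and miR-96-5p were 0.82, 0.70 and 0.83, and on slide 3 (2 and 3 arrays) they were 0.79, 0.60 and 0.79. The difference of miR-221-3p was -1.26 on slide 1 and -0.66 on slide 3. With the slide as a block in the fit the same 3 miRNAs were called, with differences of 0.85 for miR-182-5p, 0.65 for miR-183-5p and -0.82 for miR-221-3p. Limma made 0 calls without the second cyclosporin A array, without the 2 arrays of most outlier spots, and under each of the 5 other scalings tried (10 to 16 miRNAs at an unadjusted p under 0.05), with the direction of all 3 kept. Among these, the differences of miR-182-5p, miR-183-5p and miR-221-3p were smallest with normexp and quantile normalisation (0.32, 0.18 and -0.24), and the first 2 were 0.55 and 0.39 with the percentile over all probes. With the groups named by the files, 19 miRNAs were called (17 higher, 2 lower), the differences of miR-182-5p and miR-183-5p were 0.06 and 0.20, and neither passed the test.

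The signal over background of the cyclosporin A and DMSO arrays overlapped. The tested miRNAs well above background numbered 172 to 238 on the cyclosporin A arrays and 204 to 267 on the DMSO arrays, and no spot was saturated (0 spots). The second cyclosporin A array had the fewest, and with 10.3% it had the most spots marked as outliers by the scanner software, followed by the fifth DMSO array with 8.40% (the 7 other arrays had 3.12% to 4.23%). What part this had in the low reading of miR-221-3p on that array was not tested.

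The change at this dose was small across the array. Over all 290 tested miRNAs the median difference was 0.02, with 160 above 0 and 121 below, and 0 differences exceeded 1 log2 unit in either direction. The median 95% interval reached 0.46 to each side of the estimate. This width is not adjusted for the 290 tests, and a call needed a larger change for the typical miRNA. For example, miR-96-5p with 0.74 ± 0.21 did not pass with 3 and 6 arrays. At an unadjusted p under 0.05 there were 15 miRNAs, 10 higher and 5 lower. The groups did not overlap for 8 miRNAs (6 higher, 2 lower), or 2.76% of those tested: the 4 named so far, miR-770-3p, miR-6378 and miR-2861 on the higher side, and miR-378a-3p on the lower side. With 3 and 6 arrays, chance alone can separate the groups for a like share of miRNAs. Non-overlap by itself is therefore a description and no test of a single miRNA.

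**Figure D2:**
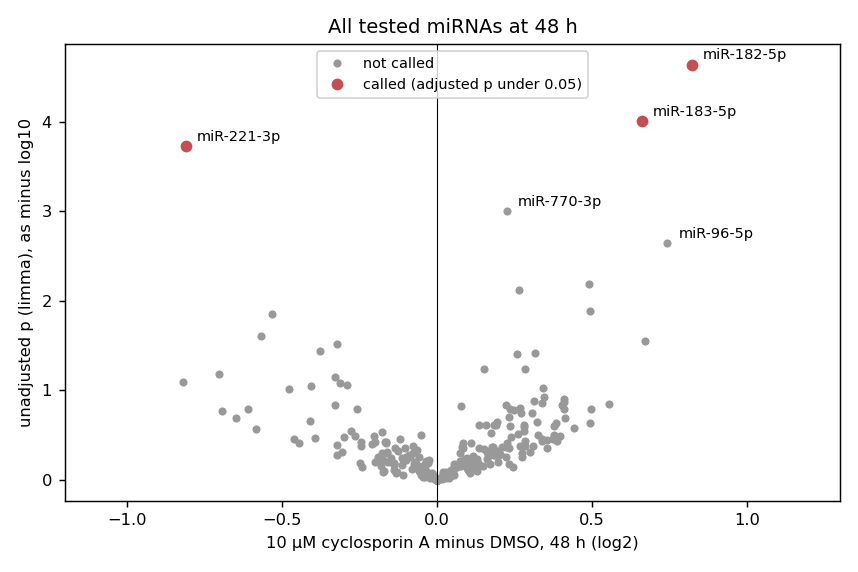
Difference between 10 µM cyclosporin A and DMSO at 48 h (log2, horizontal axis) against the unadjusted limma p (as minus log10, vertical axis), 1 point for each of the 290 tested miRNAs. The 3 called miRNAs (red) stand apart at 0.82, 0.66 and -0.81; miR-96-5p and miR-770-3p are the next, and no point lies beyond 1 or -1.

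None of the other miRNAs with the lowest p-values passed the test, and they are given by their values. miR-770-3p, whose gene lies in the Meg3 transcript of the imprinted Dlk1-Dio3 region, read -4.15, -4.16 and -4.13 with cyclosporin A. The second of these values was not well above background. With DMSO miR-770-3p stood at the floor on 4 arrays and read -4.40 and -4.18 on the 2 others. The difference was 0.22 ± 0.06 (adjusted p 0.0722), and the 4 arrays held at the floor narrow this SE.

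miR-6378 read -1.14, -1.47 and -1.58 with cyclosporin A and -2.14, -1.91 and -1.59 (lowest, median and highest) with DMSO. The groups did not overlap, and the difference was 0.49 ± 0.16 (adjusted p 0.314). miR-2861, known in mouse osteoblasts for acting on the histone deacetylase gene Hdac5, read 0.49, 0.51 and 0.55 with cyclosporin A and at most 0.44 with DMSO, a difference of 0.28 ± 0.14 (adjusted p 0.977).

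miR-148a-3p, an abundant hepatocyte miRNA that acts on the LDL receptor, read 0.39, -0.02 and -0.05 with cyclosporin A. With DMSO it read -0.93 at the lowest, -0.31 at the median and 0.05 at the highest, so the groups overlapped. The difference was 0.49 ± 0.18 (adjusted p 0.446). For its 2 seed mates on the array the difference was below 0: -0.33 ± 0.22 for miR-148b-3p and -0.17 ± 0.18 for miR-152-3p (adjusted p 1 for both). Whether the 3 differ from each other was not tested. Their sequences are shown because they carry 1 seed.

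miR-148a-3p: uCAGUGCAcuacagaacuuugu
miR-148b-3p: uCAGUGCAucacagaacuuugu
miR-152-3p: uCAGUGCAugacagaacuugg

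On the higher side, miR-702-3p, miR-3096b-3p, miR-500-3p, miR-1906 and miR-138-1-3p had differences of 0.26, 0.67, 0.31, 0.26 and 0.15, with adjusted p of 0.316 to 0.977. Of these, miR-138-1-3p was above the floor on 1 cyclosporin A array (-3.95) and at it on all DMSO arrays, and miR-3096b-3p spanned 0.06 to 0.42 with cyclosporin A and -0.95 to 0.12 with DMSO. All 5 sets of values overlapped between the groups.

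On the lower side, miR-130a-3p, which acts on the adipogenic receptor gene Pparg, read -0.35, -0.95 and -0.83 with cyclosporin A. With DMSO its lowest value was -0.63, its median -0.16 and its highest 0.24. The difference was -0.53 ± 0.19 (adjusted p 0.446), with overlap at 1 array on each side. miR-193a-3p, which is often lost in tumours, differed by -0.57 ± 0.23 (adjusted p 0.710), and its DMSO arrays ran from -1.87 to -0.84.

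miR-378a-3p is encoded in the gene of the metabolic coactivator PGC-1β. It read -2.01, -2.15 and -2.02 with cyclosporin A and between -1.87 and -1.67 with DMSO. The groups did not overlap, the difference was -0.32 ± 0.14, and the adjusted p was 0.731. Its relatives miR-378b and miR-378d differed by -0.33 ± 0.17 and -0.29 ± 0.16 (adjusted p 1), and both overlapped between the groups. The RefSeq entries of these relatives do not share a seed.

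miR-378b: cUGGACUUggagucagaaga
miR-378d: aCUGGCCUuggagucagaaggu

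The remaining members of the lower side were miR-185-5p and miR-27b-3p, both known regulators of hepatic lipid genes, with -0.38 ± 0.17 and -0.31 ± 0.17. miR-210-3p, the miRNA induced by hypoxia through HIF-1, differed by -0.48 ± 0.27. miR-5128, miR-3473e and miR-1198-5p had differences of -0.82, -0.70 and -0.41, with SEs of 0.44, 0.36 and 0.23. For miR-5128 and miR-3473e, DMSO array 6 was far above the other DMSO arrays (0.05 and -2.04, against medians of -2.02 and -3.74). miR-1198-5p was not well above background on any cyclosporin A array and was so on 3 of 6 DMSO arrays. By the group means its signal was at least 1.05-fold lower with cyclosporin A, a bound that leaves out the spread between arrays. Adjusted p was 0.757 for miR-185-5p and 1 for the others.

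The miRNAs that mark hepatocytes gave no difference that passed the test. miR-122-5p read 5.69, 5.36 and 5.45 with cyclosporin A and 5.30, 5.37 and 5.63 (lowest, median and highest) with DMSO, a difference of 0.08 ± 0.11 with a 95% interval of -0.14 to 0.31. miR-192-5p and miR-194-5p, which are transcribed together, differed by -0.09 ± 0.14 and -0.02 ± 0.15. miR-22-3p differed by 0.10 ± 0.16. Adjusted p was 1 for all 4, and their groups overlapped.

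Of the 14 hepatocyte-enriched miRNAs on the array, 12 were tested and 0 called. Over all 290 tested the share called was 1.03%, so 0 of 12 does not set the list apart. Their differences had a median of 0.04 (-0.21 with the percentile over all probes, which moved the median of all miRNAs by -0.16), between -0.57 (miR-193a-3p) and 0.49 (miR-148a-3p), with 6 above 0 and 6 below. The summed scaled signal of the list was 56.2 to 70.2 with cyclosporin A and 52.2 to 68.9 with DMSO. Among the markers of other cells, endothelial, leukocyte, stellate and epithelial lists had 1 tested member each and the erythroid, muscle and neural lists 0. Their sums overlapped between the groups, for example 0.0845 to 0.163 with cyclosporin A and 0.0676 to 0.168 with DMSO for the endothelial list. miR-126-3p, the tested endothelial miRNA, differed by 0.38 ± 0.31 (adjusted p 1). In bulk samples, fewer cells of a type and less RNA per cell cannot be told apart.

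The lists that follow were chosen with earlier results of these data known, and their counts are descriptions. The lipid and cholesterol list held 14 tested miRNAs, of which 2 rose (miR-182-5p and miR-183-5p) and 0 fell, against 0.690% higher and 0.345% lower among all 290. Its other members lay between -0.53 (miR-130a-3p) and 0.74 (miR-96-5p), and its median was 0.04, against 0.02 over all tested. In the endoplasmic reticulum stress list of 10, miR-221-3p fell, 0 rose, and the median was 0.05. The p53 list had 7 tested members, 0 calls and a median of 0.00; miR-34a-5p, the best known p53 target among miRNAs, differed by 0.00 ± 0.28. The inflammation list had 4 tested members and 0 calls, with 0.10 ± 0.17 for miR-21a-5p and 0.23 ± 0.17 for miR-155-5p.

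The miR-17/92a cluster and its paralogs, which promote the cell cycle, had 11 tested members and 0 calls, and all 11 differences were above 0 (median 0.32, range 0.10 to 0.55). These miRNAs are made from few primary transcripts, so they are not independent. The median was 0.05 with the percentile over all probes and -0.10 with the groups named by the files. miR-20a-5p read 0.46, 0.30 and 0.00 with cyclosporin A, inside the DMSO range of -0.81 to 0.57. Its difference was 0.49 ± 0.34. miR-20b-5p, with the largest difference of the list, read -0.72, -0.77 and -1.15 with cyclosporin A, again inside its DMSO range of -2.10 to -0.55.

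The Sfmbt2 intron cluster (here the families of miR-669, miR-467, miR-466 and miR-297, near-identical copies whose signals an array may not keep apart) had 61 members on the array, 11 tested and 0 called. In 10 of the 11 the difference was below 0 (median -0.32). The median was between -1.41 (value table) and -0.10 (miRNAs above background on all 9 arrays) under the other scalings, filters and blocks, and 0.08 with the groups named by the files. miR-466f-3p was not well above background on any cyclosporin A array and was so on 4 of 6 DMSO arrays. Its difference was -0.69 ± 0.49 and did not pass the test. By the group means it was at least 1.28-fold lower, a bound that leaves out the spread between arrays. miR-669p-3p read -3.94, -4.41 and -4.22 with cyclosporin A and -4.33, -3.39 and -2.97 (lowest, median and highest) with DMSO, a difference of -0.65 ± 0.49.

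The other lists had 0 calls and medians of 0.05 (let-7, 9 tested), 0.02 (miR-30, 9), 0.21 (miR-29, 3), 0.18 (miR-15/16, 3), 0.06 (miR-23/24/27, 5) and 0.22 (Dlk1-Dio3 imprinted cluster, 5 of 42 tested). With the percentile over all probes all 6 medians were below 0 (-0.22, -0.20, -0.06, -0.09, -0.21 and -0.04). With the groups named by the files the last 2 were -0.56 and 1.04. The Dlk1-Dio3 median was 0.0061 without the third cyclosporin A array and 0.082 without the second DMSO array.

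**Figure D3:**
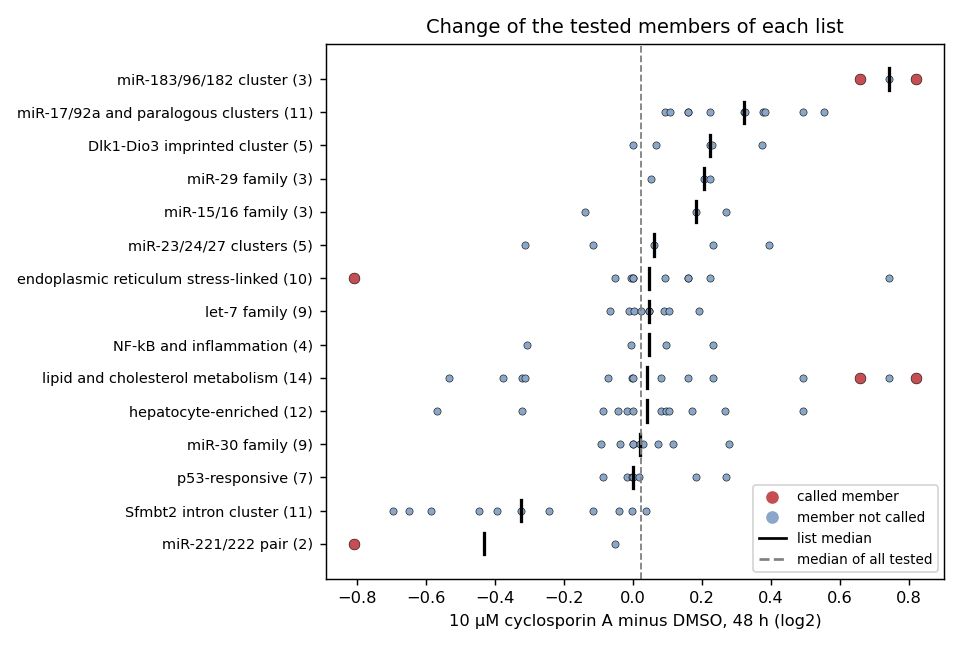
Difference between 10 µM cyclosporin A and DMSO at 48 h (log2, horizontal axis) of the tested members of each list with at least 2 of them (number in brackets); red points passed the test, black bars are list medians and the dashed line the median of all 290 tested miRNAs, 0.02. The miR-183 cluster lies farthest to the right (median 0.74), the miR-221 pair farthest to the left (median -0.43), and the hepatocyte-enriched list is centred at 0.04.

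The spread between arrays of 1 group differed from miRNA to miRNA. The median SD per miRNA was 0.22 over the 3 cyclosporin A arrays and 0.37 over the 6 DMSO arrays. The most variable miRNA with cyclosporin A was miR-3057-5p, at -3.42, -2.44 and -1.69. It spread as widely with DMSO, at -3.83 to -2.01. miR-188-5p, a bright miRNA, read 1.65, 2.18 and 3.03 with cyclosporin A and 1.14 to 3.09 with DMSO. The labels give each array an experiment number: the low values of both miRNAs came from experiment 1 in both groups and the high ones from experiment 3.

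The dose was the question of the next comparison, which uses no DMSO array: 10 µM against 50 µM cyclosporin A, both at 48 h. Of 290 miRNAs, 84 differed (29.0%), 22 higher at 10 µM and 62 lower. The 62 include miRNAs at the floor on every 10 µM array, such as miR-5116 and miR-6418-5p, whose SEs the floor narrows. Under quantile normalisation the split of the calls was 36 higher and 43 lower. The 50 µM arrays were unequal. On arrays 1 to 3, in that order, 175, 245 and 277 tested miRNAs were well above background. Outlier spots made up 9.24%, 8.44% and 4.21%, and the 75th percentile was 334, 336 and 605. The lowest signal well above background was -3.26, -4.33 and -5.54. What part this had in the calls was not tested. The 5 miRNAs with the lowest p on each side are described. On the higher side they were the whole miR-183 cluster, miR-361-5p and miR-21a-5p, and on the lower side miR-770-3p, miR-6351, miR-1931, miR-450a-2-3p and miR-6378.

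miR-182-5p, given above for 10 µM, read -4.03, -3.53 and -3.87 at 50 µM. All 10 µM arrays were higher, by 1.31 ± 0.17 or 2.48-fold (adjusted p 1.34e-05). miR-183-5p and miR-96-5p read -4.31, -3.77 and -3.97 and -3.88, -3.48 and -3.93 at 50 µM, and were higher at 10 µM by 0.88 ± 0.15 and 1.16 ± 0.24 (adjusted p 0.000306 and 0.00148). On the side of the solvent, the difference between 50 µM and DMSO was -0.49 ± 0.14 for miR-182-5p (adjusted p 0.0123). For miR-183-5p and miR-96-5p it was -0.22 ± 0.13 and -0.42 ± 0.21, and neither passed the test (adjusted p 0.170 and 0.118, limma). Of the cluster, only miR-182-5p thus passed the test on both sides, above DMSO at the lower dose and below it at the higher one. On the first 50 µM array the lowest signal well above background was -3.26, so none of its cluster readings was well above background.

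miR-221-3p read -4.41, -4.32 and -4.35 at 50 µM and was not distinguishable between the doses (difference 0.37 ± 0.20, 95% interval -0.05 to 0.78, adjusted p 0.168). Against DMSO, 50 µM gave -1.17 ± 0.17 (adjusted p 4.76e-05). Since 50 µM left it near the floor, a lower level could not have been measured.

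miR-21a-5p, an abundant miRNA that is raised in many tumours, read 5.05, 4.81 and 4.75 at 10 µM and 4.14, 4.17 and 3.94 at 50 µM. The 10 µM arrays were higher by 0.79 ± 0.19 (adjusted p 0.00559) and overlapped those with DMSO (4.15 to 5.17). miR-361-5p was higher at 10 µM than at 50 µM by 0.74 ± 0.13 (adjusted p 0.000459), while its difference between 10 µM and DMSO was 0.00 ± 0.12. For both, all 10 µM arrays lay within the DMSO range and all 50 µM arrays below the 10 µM ones.

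On the lower side, 4 of the 5 miRNAs described were near or at the floor at 10 µM and miR-6378 was above it. miR-770-3p read -2.70, -2.63 and -2.66 at 50 µM, and the 10 µM arrays were lower by 1.48 log2 units (difference -1.48 ± 0.07, adjusted p 6.68e-12). miR-6378 read 0.10, 0.21 and 0.62 at 50 µM, a difference of -1.70 ± 0.18 (adjusted p 1.94e-06). For both, the 10 µM arrays lay between DMSO and 50 µM. miR-6351, miR-1931 and miR-450a-2-3p were not well above background on any 10 µM array and were so on 2 of 3 arrays at 50 µM. By the group means they were at least 2.21-fold, 1.52-fold and 1.46-fold lower at 10 µM (adjusted p 2.50e-09, 7.09e-07 and 1.94e-06, limma). All their 10 µM values stood at the floor, which narrows the SEs, and arrays at 50 µM helped them pass the filter. Their p-values are therefore descriptions and no measure of strength. The same holds for miR-770-3p. In the shared fit it stood at the floor on DMSO arrays of both times and on 10 µM arrays at 24 h, which narrows its SE. It was well above background on 2 of 3 arrays at 10 µM and on all 50 µM arrays, which helped it pass the filter.

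**Figure D4:**
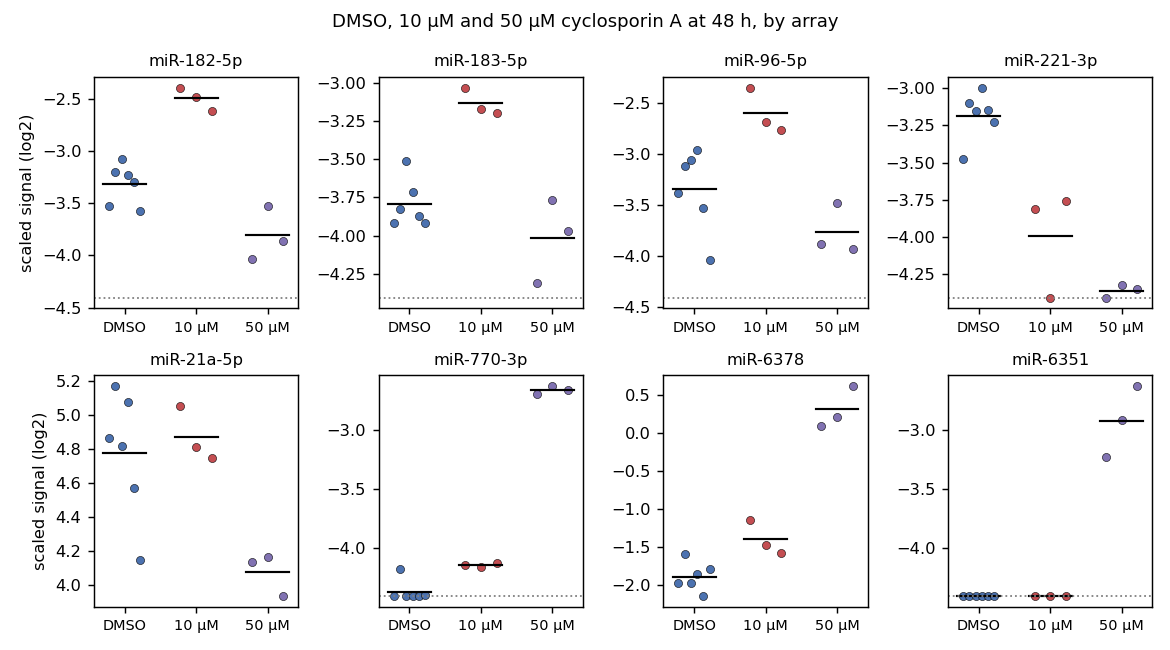
Scaled signal (log2, vertical axes, which differ between panels) of 8 miRNAs on each 48 h array with DMSO (blue, n = 6), 10 µM cyclosporin A (red, n = 3) and 50 µM (purple, n = 3); bars are means and the dotted line is the floor of -4.41. The miR-183 cluster is highest at 10 µM, miR-221-3p is lower at both doses than with DMSO, miR-21a-5p is lower at 50 µM, and miR-770-3p, miR-6378 and miR-6351 are high at 50 µM.

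Among the other miRNAs named for the comparison with DMSO, miR-148a-3p, miR-185-5p, miR-27b-3p and miR-702-3p were higher at 10 µM than at 50 µM, by 0.59, 0.69, 0.65 and 0.28 (adjusted p 0.0124 to 0.0437). With the slide as a block these 4 did not pass (adjusted p 0.126, 0.0562, 0.0709 and 0.184). miR-1906, miR-3473e and miR-5128 were lower, with differences of -0.42, -1.61 and -2.13 (adjusted p 0.00466 to 0.0239). miR-122-5p did not pass the test between the doses, at 0.03 ± 0.12.

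Reading the sequences of the lower side brought out a run of letters, GAUGGC, in several of these miRNAs. It was chosen after their values were seen and therefore carries no test. Of the 229 tested miRNAs with a RefSeq sequence used here, 6 hold it in their mature strand, or 2.62%. They are printed with the run in capitals.

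miR-1931: augcaagggcuggugcGAUGGC
miR-3473a: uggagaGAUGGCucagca
miR-3473b: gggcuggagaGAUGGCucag
miR-3473e: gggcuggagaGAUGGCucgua
miR-5128: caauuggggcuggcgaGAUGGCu
miR-877-5p: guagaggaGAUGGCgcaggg

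The first 5 were each lower at 10 µM than at 50 µM and passed the test, with differences of -0.94, -1.83, -1.99, -1.61 and -2.13. Over all 290 tested, 62 were lower and passed. Since the run was picked from miRNAs of the lower side, the count of 5 is no result about the run. miR-877-5p, where the run stands in other surroundings, differed by 0.22 ± 0.13 (adjusted p 0.187). Against DMSO the 6 had differences of -0.82 to 0.14 at 10 µM, and 0 passed the test. The 5 have like sequences, and whether their probes share signal was not tested.

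All 50 µM arrays at 48 h came from slide 1, with 1 of the 3 arrays at 10 µM. Within that slide the differences were 1.33, 0.85 and 1.07 for miR-182-5p, miR-183-5p and miR-96-5p, 0.73 for miR-21a-5p, and -1.50 and -1.78 for miR-770-3p and miR-6378. With the slide as a block 68 miRNAs were called, 11 higher and 57 lower. With the groups named by the files 0 were called by limma, and 16 had an unadjusted p under 0.05. These names exchange 2 of the 3 arrays of each dose, so differences shared by all arrays shrink and turn by construction. Leaving out the first or the second array at 10 µM left 47 and 54 calls.

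The last comparison asks whether the difference between 10 µM and DMSO changed between 24 h and 48 h. At 24 h, 0 of 290 miRNAs passed the test between 10 µM cyclosporin A and DMSO, and 16 had an unadjusted p under 0.05 (limma). Tested directly, the 48 h difference minus the 24 h difference was called for 0 of 290 (0%), with 4 at an unadjusted p under 0.05. The median 95% interval of this contrast reached 0.66 to each side, so changes over time of less than that were mostly out of reach. This width is not adjusted for the 290 tests, so a call needed still larger changes.

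The cluster was higher with cyclosporin A at 24 h as well, though without passing the test. At 24 h miR-182-5p read -2.59, -2.82 and -2.40 with cyclosporin A, and -3.48 at the lowest, -3.18 at the median and -2.91 at the highest with DMSO, again with no overlap. Its difference was 0.60 ± 0.15 and had the lowest adjusted p of all miRNAs at 24 h (0.227). For miR-183-5p and miR-96-5p the 24 h differences were 0.36 ± 0.14 and 0.42 ± 0.21. The changes between the times were 0.22 ± 0.21, 0.30 ± 0.19 and 0.32 ± 0.30, and none passed the test.

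miR-221-3p read -3.38, -3.82 and -3.69 with cyclosporin A at 24 h and overlapped the DMSO arrays of that time, which ran from -3.87 to -3.0. Its difference was -0.23 ± 0.18 at 24 h, and the 48 h difference was lower by 0.58 ± 0.25, which did not pass after adjustment (adjusted p 1). miR-193a-3p differed by 0.00 ± 0.24 at 24 h and -0.57 at 48 h, and the change of -0.57 ± 0.33 did not pass either. Across the 290 miRNAs the differences at the 2 times, which share no array, had a correlation of 0.355, and 160 had the same sign; miRNAs of 1 array are not independent, and the arrays of both times carry the same experiment numbers.

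**Figure D5:**
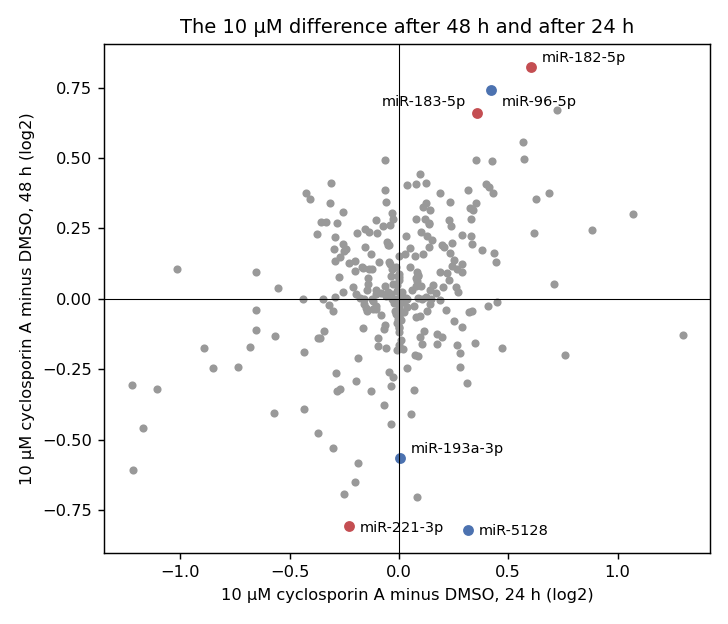
Difference between 10 µM cyclosporin A and DMSO at 48 h (log2, vertical axis) against that at 24 h (log2, horizontal axis), 1 point for each of the 290 tested miRNAs; red points passed the test at 48 h, and blue points are other named miRNAs. The miR-183 cluster lies above 0 at both times (0.60 and 0.82 for miR-182-5p), and miR-221-3p is at -0.23 at 24 h and -0.81 at 48 h.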

How the data were processed

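MiRNAs were measured on single-colour Agilent arrays. Per the file headers, Feature Extraction 10.7.3.1 made the deposited spot files, whose processed signal is a background-corrected intensity. The deposited value table holds log2 values, and the submitters' processing notes name R 2.15.2. Every column has a median of -1, which is also its minimum, so the centring stays unknown from the medians. The labels name both biotin and an Agilent labelling kit.

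For this account, the processed intensity was averaged over the non-outlier spots of each of 3105 probes and scaled to the 75th percentile of 281 probes that all 22 arrays measured above background (252 to 355 on the 9 arrays). After a floor of 0.0471, log2 was taken, and the brightest probe stood for its miRNA. A probe was well above background when a share of at least 0.5 of its spots was, and 290 of 1247 miRNAs were so on at least 3 arrays. The number of arrays limits the precision. Differences were fitted in R 4.3.3 with limma 3.58.1 over all 6 groups of the series, and p-values were adjusted over the 290 by the Benjamini-Hochberg method. The script was tested on simulated data. The p-value threshold was 0.05, and intervals are 95%.

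Named miRNAs were all called ones, the 12 lowest p-values on each side, their cluster mates, 8 well-known liver miRNAs, and the 5 lowest p-values on each side between the doses, which gave 36. Other miRNAs (list members, seed mates, holders of a run of letters, the most variable) were named after their values were seen. Members and lists were chosen with earlier results of these data known. RefSeq entries matched 31 of the 36. The closing section gives the effect of other scalings, filters, blocks, names and left-out arrays.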

Additional observations from a re-analysis of the deposited data

Results flagged for a closer look

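The values below stood apart by a fixed rule among 32 named miRNAs. On 6 of them 1 DMSO array at 48 h lay far from the other 5 (Dixon's test, which chance meets in about 1 of 20 groups of normally distributed values). Values at the floor shrink the range, so this rate cannot be used for miR-770-3p and miR-222-3p. Most of their DMSO arrays stood at the floor or were not well above background. The second DMSO array read -4.18 for miR-770-3p where the rest were at or near the floor. The fourth read -3.99 for miR-702-3p and -4.21 for miR-222-3p, above the others in both cases. The sixth, which had the most tested miRNAs above background, read -2.04 for miR-3473e and -3.77 for miR-155-5p, above the others, and 0.011 for miR-194-5p, below them.

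For 13 of 32 named miRNAs the difference against DMSO differed between 10 µM and 50 µM at 48 h (limma, adjusted p under 0.05). Over all 290 tested, 84 (29.0%) passed between the doses, and most of the 32 were chosen by values of the same 10 µM arrays. The difference of the effects, 10 µM minus 50 µM, uses the same DMSO arrays in both, so it repeats the dose comparison above. It was above 0 for miR-182-5p (1.31), miR-96-5p (1.16), miR-183-5p (0.88), miR-21a-5p (0.79), miR-185-5p (0.69), miR-27b-3p (0.65), miR-148a-3p (0.59) and miR-702-3p (0.28). It was below 0 for miR-5128 (-2.13), miR-6378 (-1.70), miR-3473e (-1.61), miR-770-3p (-1.48) and miR-1906 (-0.42). With the slide as a block, miR-148a-3p, miR-185-5p, miR-27b-3p and miR-702-3p no longer passed (adjusted p 0.126, 0.0562, 0.0709 and 0.184).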

How the results depend on the processing

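Against DMSO, the 3 calls were kept in number, within 1.5 times, with the slide as a block, with the 9 arrays alone, without the filter and with DMSO arrays of the same tag. There were 0 calls with the percentile over all probes (which moved the median of all miRNAs by -0.16), quantile normalisation, normexp with quantile normalisation, the total gene signal, the deposited value table, and without the 2 arrays of most outlier spots, an alternative chosen after seeing the data; 10 to 16 miRNAs then had an unadjusted p under 0.05. In that order miR-182-5p differed by 0.55, 0.75, 0.32, 0.78, 0.78 and 0.82, miR-183-5p by 0.39, 0.56, 0.18, 0.78, 0.87 and 0.66, and miR-221-3p by -1.01, -0.83, -0.24, -1.39, -2.38 and -0.59. miR-221-3p also lost its call with the 9 arrays alone (-0.81) and with same-tag DMSO arrays (-0.76). With the groups named by the files there were 19 calls, miR-182-5p differed by 0.056 and miR-183-5p by 0.20. Leaving out 1 array at a time gave 0 to 4 calls, and differences of 0.77 to 0.88 (miR-182-5p), 0.61 to 0.72 (miR-183-5p) and -0.93 to -0.60 (miR-221-3p); the 0 was without cyclosporin A array 2, and miR-183-5p also lost its call without array 1.

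The experiment number was tried as a replicate block. Of 6 same-numbered pairs 5 had deviations correlated above 0.1 (0.12 to 0.72) and 1 did not (0.04). All pairs of experiments 1 and 3 lay at 0.63 to 0.72, and the values of 0.12 and 0.04 were those of experiment 2. Because of the 1 pair under 0.1, the numbers were not taken as a pairing in the main fit. Each cyclosporin A array nevertheless correlated best with a DMSO array of its own number. Between arrays of experiments 1 and 3 the correlations were -0.75 to -0.64. The main fit thus leaves differences between experiments in its spread and counts DMSO arrays of 1 number as separate units. The block gave 3 calls against DMSO, 118 between the doses and 0 between the times. Between the doses the percentile over all probes gave 41 calls, the file names 0, and left-out arrays 47 to 84. Between the times every alternative gave 0 calls, with 2 to 11 miRNAs at an unadjusted p under 0.05 (limma).

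Signs turned mostly for values near 0. Against DMSO, with the percentile over all probes: miR-122-5p -0.19, miR-155-5p -0.0041, miR-1906 -0.013, miR-21a-5p -0.17, miR-22-3p -0.17, miR-34a-5p -0.27, miR-702-3p -0.052, miR-770-3p -0.063. With quantile normalisation miR-22-3p read -0.080, and with normexp -0.0605, beside 0.0092 for miR-194-5p and -0.0002 for miR-34a-5p. The total gene signal gave -0.0040 for miR-122-5p, -0.40 for miR-155-5p and -0.023 for miR-34a-5p. The value table gave -1.39 for miR-155-5p, 0.055 for miR-194-5p and -0.90 for miR-770-3p. miR-194-5p was 0.051 with same-tag DMSO arrays, 0.0305 with the slide block and 0.031 without the 2 outlier-rich arrays, where miR-34a-5p was -0.087. Single arrays left out gave -0.013 to 0.15 for miR-122-5p, -0.00 to 0.23 for miR-138-1-3p, -0.20 to 0.0080 for miR-192-5p, -0.10 to 0.021 for miR-194-5p, -0.029 to 0.18 for miR-21a-5p and -0.16 to 0.13 for miR-34a-5p.

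The file names gave, against DMSO, -0.00 for miR-138-1-3p, -0.39 for miR-21a-5p, -0.16 for miR-22-3p, 0.34 for miR-3473e, -0.31 for miR-34a-5p and 0.57 for miR-5128. Between the doses they turned all 17 differences named: miR-148a-3p -0.0054, miR-182-5p -0.22, miR-183-5p -0.030, miR-185-5p -0.0525, miR-1906 0.22, miR-1931 0.51, miR-21a-5p -0.18, miR-27b-3p -0.25, miR-3473e 0.47, miR-361-5p -0.13, miR-450a-2-3p 0.44, miR-5128 0.65, miR-6351 0.70, miR-6378 0.88, miR-702-3p -0.21, miR-770-3p 0.52 and miR-96-5p -0.14. The file names exchange 2 of the 3 arrays of each dose at 48 h. Between the doses, a difference of like size in all 3 arrays must then shrink and turn its sign. The turned signs are therefore no measure of how stable the dose differences are. Which naming is right was not tested.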
